A study of Mus musculus with 6 samples.

Results

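The 45 genes described here are those whose symbol begins with Nduf and a further lower-case letter, out of 14008 named entries in an expression table of mouse retinal pigment epithelium (RPE), the pigmented layer that serves the photoreceptors. Of these genes, 36 encode subunits of respiratory complex I, 8 encode assembly factors, and Ndufa4 encodes a protein now placed in complex IV. The selection used symbols alone and no measured value. Samples enriched for RPE came from male C57BL/6J mice, an inbred strain, aged 8 to 10 weeks, with no treatment or altered gene named in the labels. Eyes were taken at circadian time CT1 (3 libraries) and at CT23 (3 libraries), on either side of subjective dawn and 2 h apart. Each library pooled RPE from 2 samples, and RPE was freed by sonication from tissue that also held choroid and sclera.

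Complex I, the NADH:ubiquinone oxidoreductase, is the entry point of the mitochondrial respiratory chain. Its peripheral arm reaches into the matrix, where the N module takes electrons from NADH and the Q module hands them to ubiquinone. Its membrane arm pumps protons, and the subunits at the heart of that arm are encoded in mitochondrial DNA, whereas all Nduf genes are nuclear. Assembly factors build the arms from intermediates and are absent from the finished enzyme. The RPE leans on mitochondrial respiration and leaves much of its glucose to the photoreceptors, which makes the respiratory chain of interest in this tissue.

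The promoters of the 4 members with the smallest p-values are printed here because these genes come nearest to the threshold. Each window runs from 250 bases before to 50 bases after the RefSeq transcription start (build GRCm38.p6), 5′ to 3′ on the gene's strand, and capitals mark matches to the motifs given next. The windows are chr6:24527477-24527776 (minus strand) for Ndufa5, the first of its 2 listed starts, and chr13:114388045-114388344 (minus strand) for Ndufs4. They are chr11:120098684-120098983 (plus strand) for Ndufaf8 and chr3:51408906-51409205 (minus strand) for Ndufc1.
Ndufa5: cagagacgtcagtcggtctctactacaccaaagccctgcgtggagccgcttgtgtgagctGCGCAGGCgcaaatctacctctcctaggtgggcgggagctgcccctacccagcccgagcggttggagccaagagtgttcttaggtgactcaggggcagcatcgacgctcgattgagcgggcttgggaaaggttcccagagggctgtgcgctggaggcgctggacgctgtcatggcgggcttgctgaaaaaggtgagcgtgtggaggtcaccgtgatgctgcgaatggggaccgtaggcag
Ndufs4: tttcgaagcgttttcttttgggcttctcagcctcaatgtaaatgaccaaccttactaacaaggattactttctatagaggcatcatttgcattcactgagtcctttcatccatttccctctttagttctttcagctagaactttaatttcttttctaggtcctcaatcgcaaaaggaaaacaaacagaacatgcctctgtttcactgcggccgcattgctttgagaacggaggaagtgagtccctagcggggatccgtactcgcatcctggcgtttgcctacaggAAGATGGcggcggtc
Ndufaf8: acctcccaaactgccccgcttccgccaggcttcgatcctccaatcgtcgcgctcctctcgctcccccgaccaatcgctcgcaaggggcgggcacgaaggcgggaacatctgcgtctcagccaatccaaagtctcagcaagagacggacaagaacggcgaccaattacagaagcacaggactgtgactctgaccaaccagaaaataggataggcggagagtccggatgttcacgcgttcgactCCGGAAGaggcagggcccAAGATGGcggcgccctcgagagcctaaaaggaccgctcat
Ndufc1: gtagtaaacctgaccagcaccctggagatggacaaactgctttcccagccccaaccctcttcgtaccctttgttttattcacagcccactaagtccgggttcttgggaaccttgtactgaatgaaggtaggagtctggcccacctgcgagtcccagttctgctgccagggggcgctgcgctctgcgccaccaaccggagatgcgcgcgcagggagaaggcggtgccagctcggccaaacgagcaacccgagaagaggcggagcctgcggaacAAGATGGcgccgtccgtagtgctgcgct

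The motifs were searched on both strands, and no 2 of them matched overlapping bases in the printed windows. RefSeq windows were found for 40 of the 45 members, 42 windows in all. The core of the NRF1 site, GCGCANGC, was in 12 of the 42 member windows (28.6%, among them both overlapping windows of Ndufa5) and in 9.95% of all 32851 promoter windows. The core of the YY1 site, AAGATGG, was in 8 member windows (19.0%), against 6.34% of all windows, and the ETS core bound by GABP, CCGGAAG, was in 6 (14.3%), against 8.86%. The E-box of the circadian clock, CACGTG, was in 3 member windows (7.14%), those of Ndufa7 and Ndufv1, against 7.15% of all. The half-site of estrogen-related receptors, AAGGTCA, was in 3 (7.14%), against 4.72%. Of the 4 printed windows, Ndufa5 held the NRF1 core, Ndufs4 and Ndufc1 held the YY1 core, and Ndufaf8 held the ETS and YY1 cores. These are matches of letters and were not tested as binding sites.

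Expression is given as CPM (read counts brought to the same library total), in libraries of 12612330 to 13651486 reads. Listed entries held 12.7% to 32.3% of these totals, and what else the totals count is not stated. Crystallin genes of the lens took 0.233% to 1.93% of the total reads of the CT1 libraries and 2.34% to 19.8% of those of the CT23 libraries, where replicates 1 and 2 (19.8% and 17.97%) stood apart. Of listed reads alone, crystallin genes held 2697263 of 4407650 in CT23 replicate 1 and 2338928 of 3985647 in CT23 replicate 2. All 12 RPE markers searched for were listed, none of them at 0, with sums of 1060 to 1556 CPM at CT1 and 906 to 1166 CPM at CT23. Markers of other tissues were present as well, and none of these marker genes passed adjustment. Rod markers (18 of 18 listed) summed to 923 to 998 CPM at CT1 and 1357 to 1633 CPM at CT23. Skeletal muscle markers (16 of 17 listed, none at 0) summed to 48.5, 195 and 142 CPM in CT1 replicates 1, 2 and 3 and to 45.9, 42.3 and 11.1 CPM in CT23 replicates 1, 2 and 3. Fibroblast and sclera markers (12 of 12) summed to 1062 to 1966 CPM at CT1 and 813 to 969 CPM at CT23. Melanocyte markers (8 of 8, none at 0) summed to 2454 to 2710 CPM at CT1 and 1858 to 2185 CPM at CT23, and surface epithelium markers (10 of 10, none at 0) to 1191 to 1968 CPM at CT1 and 667 to 1524 CPM at CT23. In bulk RNA such as this, fewer cells of a type and less RNA per cell cannot be told apart.

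Each member had between 3 and 717 reads in a library, with a median of 72.5, and no member was at 0 in any library. Reads came from the 3′ end of transcripts and were not divided by length, so levels are compared between libraries and not between genes. limma was run on log2(CPM + 1) for the 11342 genes that averaged 1 CPM or more, and log2 folds are CT1 minus CT23 on that scale. The test covered 42 members. Ndufs3, Ndufaf5 and Ndufaf6 lay below the filter.

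Complex I genes were on balance slightly higher at CT1 as deposited, and no single member passed the threshold. They were not higher once crystallin reads were left out of the library totals, a setting that by construction lowers the CT1 minus CT23 folds of all genes. The median log2 fold of the 42 members was 0.16, against -0.014 for all genes tested. With crystallin reads left out of the library totals the medians were -0.012 and -0.17, so the sign flipped there. The members' median lay 0.17 above that of all genes as deposited and 0.16 above it without crystallin reads. With TMM factors the medians were 0.17 for the members and 0.0035 for all genes, and 30 of the 42 were higher. Higher at CT1 were 30 of the 42 (20 of 42 without crystallin reads), where 47.8% of all genes were higher (27.3% without crystallin reads). No member passed at an adjusted p of 0.05, in a comparison where 0% of all genes did, and the smallest adjusted p of a member was 0.0736. At an unadjusted p under 0.05, 10 members were higher and 0 lower at CT1, against 9.39% and 12.4% of all genes. All 3 CT1 libraries lay above all 3 CT23 libraries in 8 tested members (11.3% of all genes) and below them in 0 (16.3% of all genes). Without crystallin reads in the totals only Ndufa5 and Ndufs4 of these 8 kept CT1 and CT23 apart (3.36% of all genes were higher with no overlap there). Single libraries moved the count of members higher at an unadjusted p under 0.05. Without CT1 replicate 2, 4 members were higher (8.95% of all genes) and 2 lower (10.9%). Without CT23 replicate 1, 6 were higher (8.13%) and 1 lower (11.3%), and without CT23 replicate 3, 3 were higher (8.5%) and 1 lower (10.4%). Without crystallin reads in the totals 2 were higher (Ndufa5 and Ndufs4), against 2.85% of all genes.

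Other tests gave member counts that can be read against their own backgrounds. At an unadjusted p under 0.05, edgeR's quasi-likelihood test gave 12 members higher (10.4% of all genes) and 0 lower (11.3%), limma-voom 11 higher (10.5%) and 0 lower (11.5%), and limma with TMM factors 11 higher (10.9%) and 0 lower (11.3%). DESeq2 gave 5 higher (6.78%) and 0 lower (5.06%), and limma above a mean of 5 CPM gave 7 of 26 higher (11.6%) and 0 lower (13.8%). Without crystallin reads 1 member, Ndufb6, was lower (20.8%), and without CT23 replicates 1 and 2 there were 7 higher (4.21%) and 0 lower (4.14%). After adjustment 0 members passed in DESeq2, where 2.36% of genes with an adjusted p did, and 0 without crystallin reads, where 3.17% did. Of the 45 members, the authors' deposited table gave 10 a p under 0.05 with a higher value at CT1 (4.57% of named entries) and 1 with a lower one (7.99%). Where checked, the deposited p-values were paired by replicate number, unlike those of the limma fit.

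**Figure D1:**
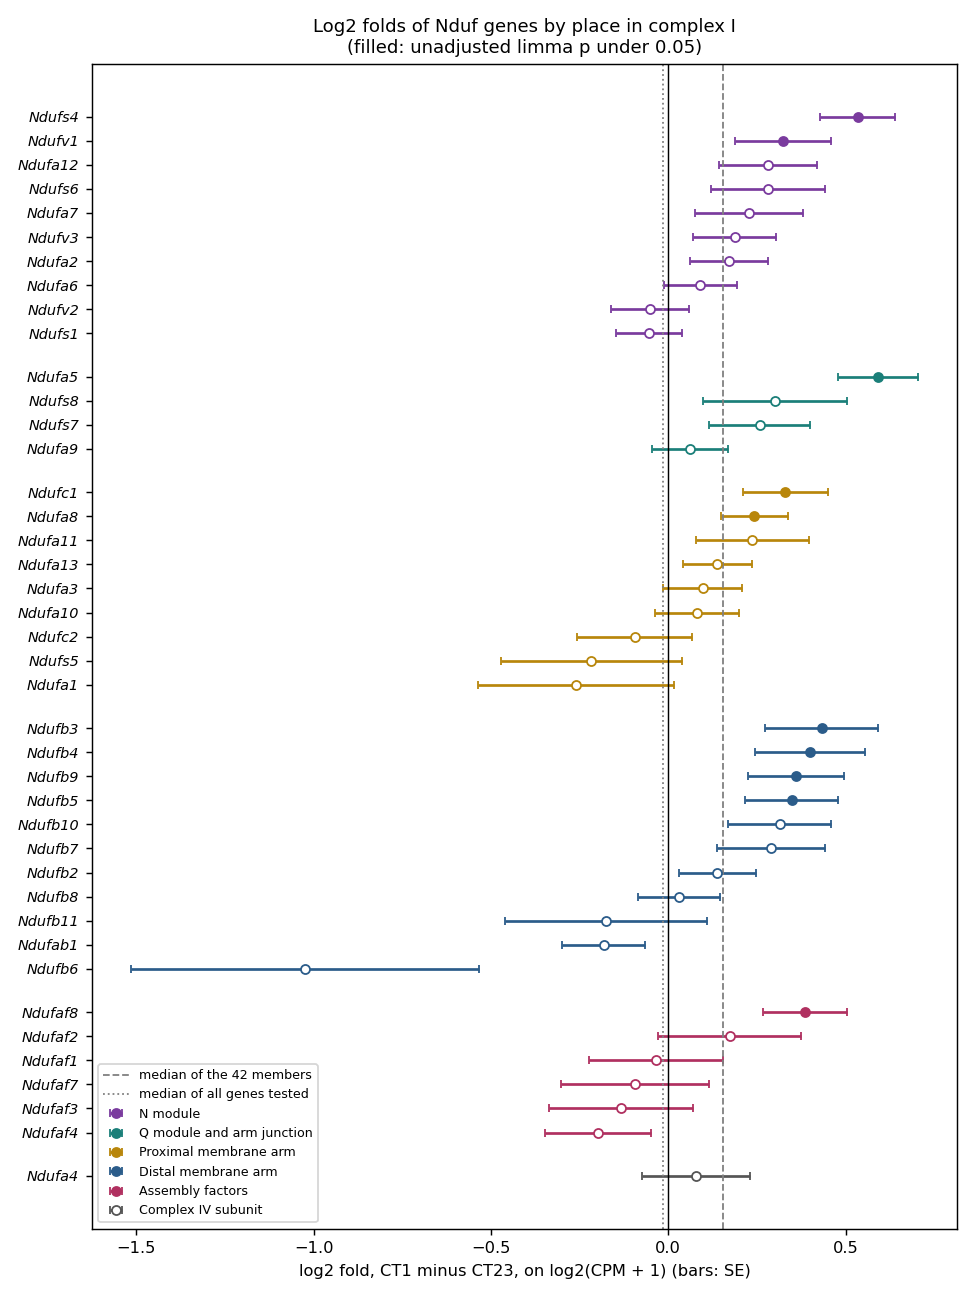
Log2 fold of CT1 minus CT23 for the tested Nduf genes (1 of the 42 is not drawn), on log2(CPM + 1), with bars for the SE and rows grouped by place in complex I; filled points had an unadjusted limma p under 0.05, and no gene passed after adjustment. The dashed line is the members' median (0.16) and the dotted line that of all genes (-0.014); with crystallin reads left out of library totals these medians are -0.012 and -0.17, so the members' sign flips.

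The sums showed the same mixture of time and library. The 45 members summed to 363, 452 and 400 CPM in CT1 replicates 1, 2 and 3. They summed to 386, 399 and 324 CPM in CT23 replicates 1, 2 and 3. The times overlapped, with CT1 replicate 1 below CT23 replicates 1 and 2, and the means were 405 ± 44.4 CPM at CT1 and 370 ± 39.9 CPM at CT23 (SD, n = 3 each). CT1 replicate 2 was highest and CT23 replicate 3 lowest. The same held for the summed RPE, melanocyte and skeletal muscle markers and for the summed subunits of complexes II to V. RPE markers summed to 1220, 1556 and 1060 CPM in CT1 replicates 1, 2 and 3 and to 1166, 1080 and 906 CPM in CT23 replicates 1, 2 and 3. It did not hold for rod, lens, fibroblast and sclera, or surface epithelium markers. The part of muscle, lens, fibroblast, melanocyte or surface epithelium RNA in the members' values was not tested. The log2 fold of the summed members was 0.13, but -0.079 without crystallin reads in the totals and 0.32 without CT23 replicates 1 and 2, and it was lowest among the fits with 1 library left out without CT23 replicate 3 (0.045).

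**Figure D2:**
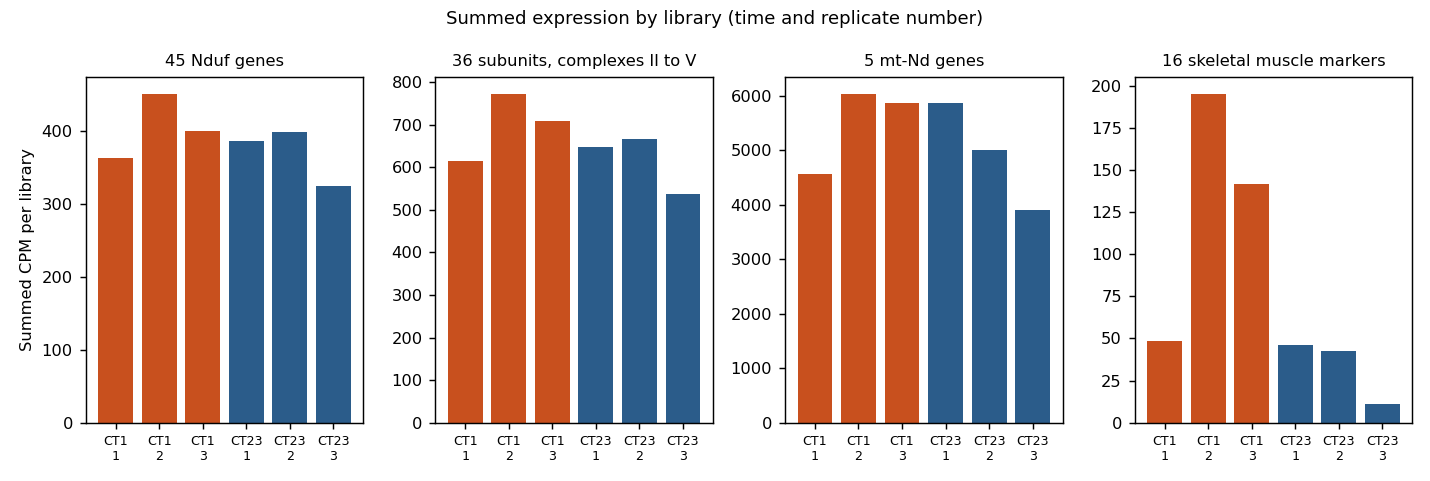
Summed CPM per library, CT1 replicates 1 to 3 left of CT23 replicates 1 to 3, for the 45 Nduf genes, 36 nuclear subunits of complexes II to V, 5 mitochondrially encoded complex I genes and 16 skeletal muscle markers. In every panel CT1 replicate 2 is highest and CT23 replicate 3 is lowest, and the 2 times overlap in all panels but that of muscle, where CT1 replicate 1 (48.5 CPM) lies close to CT23 replicate 1 (45.9 CPM).

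The subunit genes with the smallest p-values both belonged to the peripheral arm. Ndufa5 (chr6:24518666-24528013, minus strand, build mm10), an accessory subunit of the Q module, was at 8.01, 9.51 and 9.03 CPM in CT1 replicates 1, 2 and 3 and at 5.27, 6.22 and 5.13 CPM in CT23 replicates 1, 2 and 3. These values rested on 106 to 122 reads per library at CT1 and 70 to 81 at CT23. The times did not overlap, and the mean was 1.597 times as high at CT1 (log2 fold 0.59, SE 0.11, limma adjusted p = 0.0736). When the filter was raised to a mean of 5 CPM, where limma called 2.07% of all genes, Ndufa5 was the 1 member called (adjusted p = 0.0497). Over all alternatives its log2 fold stayed between 0.42 and 0.71.

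Ndufs4 (chr13:114287795-114388258, minus strand) encodes an accessory subunit that steadies the N module, and mice without it develop a disease like Leigh syndrome. It was at 5.29, 5.79 and 5.48 CPM in CT1 replicates 1, 2 and 3 and at 3.37, 3.76 and 3.37 CPM in CT23 replicates 1, 2 and 3. The libraries of each time lay close together and the times did not overlap. The mean was 1.58 times as high at CT1 (log2 fold 0.53, SE 0.11, limma adjusted p = 0.0736), and with a mean of 4.51 CPM the gene was not part of the test of genes above 5 CPM. Over all alternatives its log2 fold lay between 0.38 and 0.69.

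The counts for each part of complex I and for the assembly factors stand beside 47.8% of all genes higher at CT1 (27.3% without crystallin reads). Of all genes 9.39% were higher at an unadjusted p under 0.05. The N module had 8 of its 10 genes higher at CT1, with a median log2 fold of 0.21 (6 of 10 and 0.031 without crystallin reads in the totals), and 2 of them at an unadjusted p under 0.05. The second was Ndufv1 (chr19:4007384-4012806, minus strand), the core subunit that binds NADH and its flavin. Ndufv1 was at 4.53, 5.15 and 3.85 CPM in CT1 replicates 1, 2 and 3 and at 3.88, 3.23 and 3.08 CPM in CT23 replicates 1, 2 and 3. CT1 replicate 3 lay within the range of the CT23 libraries, and the log2 fold was 0.32 (SE 0.14, limma adjusted p = 0.214). The other core subunits of this module carry iron-sulfur clusters and had values near each other at the times. Ndufs1 was at 6.70 ± 0.222 CPM at CT1 and 6.99 ± 0.225 CPM at CT23 (SD, n = 3 each; log2 fold -0.053), and Ndufv2 was at 4.62 ± 0.236 CPM at CT1 and 4.83 ± 0.462 CPM at CT23 (log2 fold -0.051). The accessory genes Ndufa12, Ndufs6, Ndufa7, Ndufv3, Ndufa2 and Ndufa6 had log2 folds between 0.091 and 0.28, and only Ndufa12 had all CT1 libraries above all CT23 libraries, a gap that closed without crystallin reads in the totals.

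In the Q module and at the junction of the arms all 5 tested genes were higher at CT1, with a median log2 fold of 0.26 (3 of 5 and 0.11 without crystallin reads), and 1 had an unadjusted p under 0.05. The summed CPM of the 6 genes did not overlap between the times, with 33.1 to 40.1 CPM at CT1 and 27.4 to 31.9 CPM at CT23, but did without crystallin reads in the totals (33.2 to 40.8 CPM at CT1 and 29.7 to 38.9 CPM at CT23). Ndufs7, which holds the iron-sulfur cluster next to ubiquinone, was at 4.30 ± 0.727 CPM at CT1 and 3.42 ± 0.409 CPM at CT23 (SD, n = 3 each; log2 fold 0.26). Ndufs8, which holds clusters that lead to it, was at 5.38 ± 1.76 CPM at CT1 and 4.11 ± 0.810 CPM at CT23 (log2 fold 0.30), with CT1 replicate 3 alone at 7.40 CPM. Ndufa9, at the junction, had a log2 fold of 0.062. None of these passed, and their CT1 and CT23 values overlapped.

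The distal membrane arm had 8 of 11 genes higher at CT1, with a median log2 fold of 0.29 (6 of 11 and 0.12 without crystallin reads), and 4 of the 11 at an unadjusted p under 0.05. Ndufb3 (chr1:58586384-58595964, plus strand), an accessory subunit of this arm, was at 23.9, 32.7 and 25.0 CPM in CT1 replicates 1, 2 and 3 and at 18.02, 24.1 and 17.6 CPM in CT23 replicates 1, 2 and 3. Ndufb9 (chr15:58933756-58939488, plus strand), which belongs to the LYR protein family, was at 15.0, 18.7 and 17.9 CPM in CT1 replicates 1, 2 and 3 and at 11.6, 15.7 and 12.3 CPM in CT23 replicates 1, 2 and 3. In both genes CT23 replicate 2 reached into the range of the CT1 libraries. Ndufb5 (chr3:32736990-32751566, plus strand) was at 15.8, 19.7 and 19.3 CPM in CT1 replicates 1, 2 and 3 and at 13.0, 16.6 and 12.9 CPM in CT23 replicates 1, 2 and 3, with the same overlap. Ndufb4 (chr16:37647170-37654453, minus strand) was at 4.004, 4.04 and 3.18 CPM in CT1 replicates 1, 2 and 3 and at 1.98, 2.996 and 2.86 CPM in CT23 replicates 1, 2 and 3, with no overlap on 27 to 53 reads per library, though with overlap once crystallin reads were left out. Their log2 folds were 0.43, 0.36, 0.35 and 0.40 in the order given (SE 0.16, 0.14, 0.13 and 0.15), with limma adjusted p of 0.176, 0.180, 0.181 and 0.188. Ndufb10, Ndufb7, Ndufb2 and Ndufb8 had log2 folds between 0.031 and 0.31, Ndufb2 with no overlap between the times (log2 fold -0.011, with overlap, without crystallin reads).

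The proximal membrane arm had 6 of 9 genes higher at CT1 and the lowest median log2 fold of the 4 parts, 0.097 (3 of 9 and -0.061 without crystallin reads), with 2 at an unadjusted p under 0.05. Ndufa8 (chr2:36036326-36049406, minus strand), a twin-cysteine protein facing the intermembrane space, was at 10.7, 11.1 and 10.7 CPM in CT1 replicates 1, 2 and 3 and at 8.28, 9.60 and 9.17 CPM in CT23 replicates 1, 2 and 3. Ndufc1 (chr3:51404677-51408988, minus strand) was at 6.12, 7.14 and 7.48 CPM in CT1 replicates 1, 2 and 3 and at 4.91, 5.99 and 4.99 CPM in CT23 replicates 1, 2 and 3. Neither overlapped between the times, with log2 folds of 0.24 (SE 0.094, limma adjusted p = 0.192) for Ndufa8 and 0.33 (SE 0.12, limma adjusted p = 0.174) for Ndufc1. Without crystallin reads in the totals both overlapped, with log2 folds of 0.066 for Ndufa8 and 0.16 for Ndufc1. Ndufa11, Ndufa13, Ndufa3 and Ndufa10 had log2 folds between 0.081 and 0.24, and Ndufc2, Ndufs5 and Ndufa1 between -0.26 and -0.094.

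**Figure D3:**
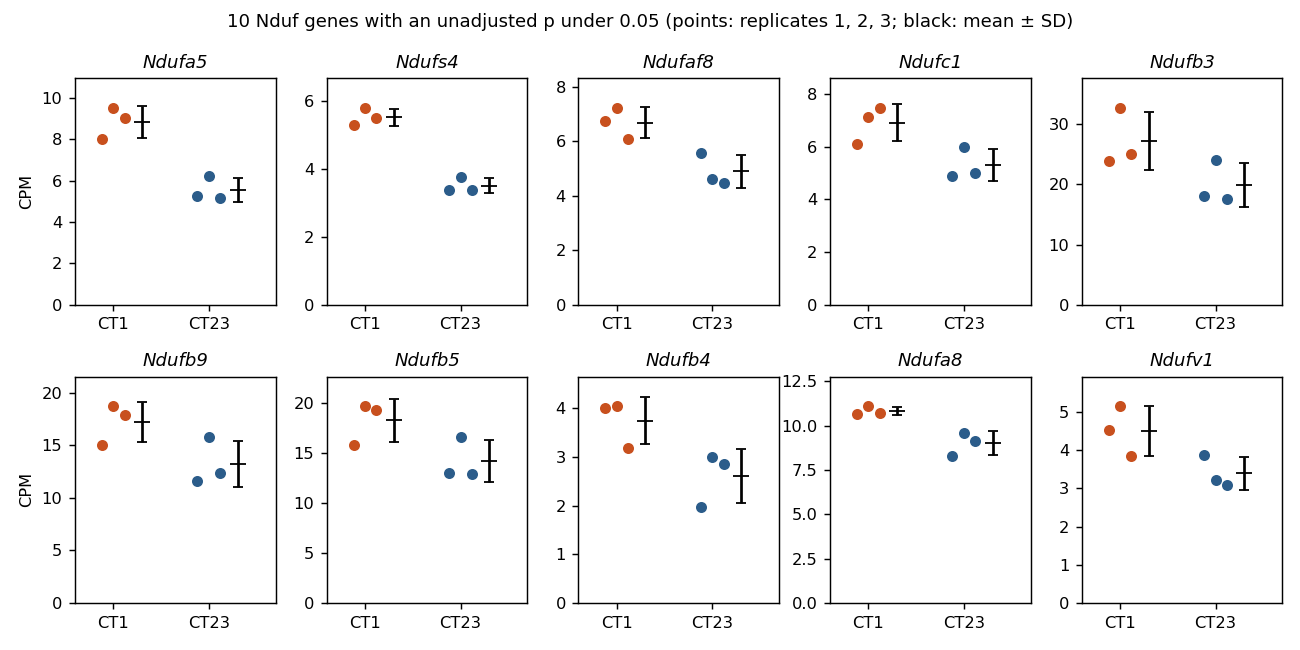
CPM of the 10 Nduf genes with an unadjusted limma p under 0.05, with CT1 left of CT23 on the horizontal axis, 1 point for each replicate and the mean ± SD in black. Ndufa5 and Ndufs4 show the widest gap between the times for their spread, while in Ndufb3, Ndufb9 and Ndufb5 CT23 replicate 2 lies within the CT1 range.

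Assembly factors named Nduf leaned little either way. CT1 values were the higher ones in 2 of the 6 tested (median log2 fold -0.064, and -0.19 without crystallin reads), and the sums of all 8 overlapped (18.3 to 22.7 CPM at CT1 and 16.2 to 21.7 CPM at CT23). Whether assembly factors differ from subunits was not tested. Ndufaf8 (chr11:120098928-120100705, plus strand), known from human cells as a partner of the factor Ndufaf5, was at 6.72, 7.22 and 6.07 CPM in CT1 replicates 1, 2 and 3 and at 5.57, 4.61 and 4.47 CPM in CT23 replicates 1, 2 and 3. The times did not overlap (log2 fold 0.38, SE 0.12, limma adjusted p = 0.131), but did without crystallin reads in the totals (log2 fold 0.22). Ndufaf5, which modifies Ndufs7, was listed below the filter at 0.755, 0.872 and 0.740 CPM in CT1 replicates 1, 2 and 3 and at 1.61, 0.999 and 0.880 CPM in CT23 replicates 1, 2 and 3. These values rested on 10 to 11 reads per library at CT1 and on 22, 13 and 12 reads in CT23 replicates 1, 2 and 3. Only CT23 replicate 1 stood well apart, and whether the partners lean opposite ways was not tested. Ndufaf6, also below the filter, was at 0.535 ± 0.0917 CPM at CT1 and 0.249 ± 0.0505 CPM at CT23 (SD, n = 3 each), with no overlap, on 6 to 8 reads per library at CT1 and 3 to 4 at CT23. CT23 counts of 3 and 4 reads are at or near the detection floor of 3 reads, so this difference rests on few reads.

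The other assembly factors overlapped between the times. Ndufaf4 and Ndufaf3, which work together early in assembly of the peripheral arm, had log2 folds of -0.20 and -0.13. Ndufaf7, a methyltransferase, had -0.094, and Ndufaf1, part of a complex that builds the membrane arm, had -0.034. Ndufaf2, a relative of Ndufa12, had 0.17. The folds of Ndufaf1, Ndufaf3 and Ndufaf7 changed sign when single libraries were left out. Ndufa4, the complex IV member of the set, was at 17.0 ± 2.14 CPM at CT1 and 16.1 ± 3.25 CPM at CT23 (log2 fold 0.079, and -0.11 without crystallin reads in the totals).

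Some members varied far more between libraries of 1 time than their read counts account for. A chi-square of the reads within times, divided by its degrees of freedom, is near 1 where counting error alone acts, and its median over the 45 members was 1.77. It was over 5 in 6 members, named here after their values were seen: Ndufa1 (58.3), Ndufb6 (28.1), Ndufb11 (11.6), Ndufb3 (9.95), Ndufc2 (7.80) and Ndufa4 (6.19). It was 0.856 for Ndufa5 and 0.172 for Ndufs4.

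Ndufb6 (chr4:40270591-40279421, minus strand), an accessory subunit of the distal membrane arm, was at 2.34, 6.03 and 0.889 CPM in CT1 replicates 1, 2 and 3 and at 10.5, 6.38 and 3.37 CPM in CT23 replicates 1, 2 and 3. Its highest library was 11.9 times its lowest, 144 reads in CT23 replicate 1 and 12 in CT1 replicate 3, and the times overlapped (log2 fold -1.02, SE 0.49, limma adjusted p = 0.266). Its 3′ end lies under Smim27 on the opposite strand, and Smim27, all CT1 libraries below all CT23 libraries, was at 1.43 ± 0.144 CPM at CT1 and 2.05 ± 0.826 CPM at CT23 (SD, n = 3 each). Ndufa1 (chrX:37187588-37191163, minus strand), an X-linked subunit of the proximal membrane arm, was at 33.0, 56.6 and 27.3 CPM in CT1 replicates 1, 2 and 3 and at 52.5, 51.4 and 32.9 CPM in CT23 replicates 1, 2 and 3. Ndufb11, also X-linked, was at 5.36, 8.25 and 3.48 CPM in CT1 replicates 1, 2 and 3 and at 8.79, 5.99 and 4.55 CPM in CT23 replicates 1, 2 and 3. In Ndufb6, Ndufa1 and Ndufb11 alike, CT1 replicate 2, CT23 replicate 1 and CT23 replicate 2 were the highest libraries and CT1 replicate 3 the lowest.

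**Figure D4:**
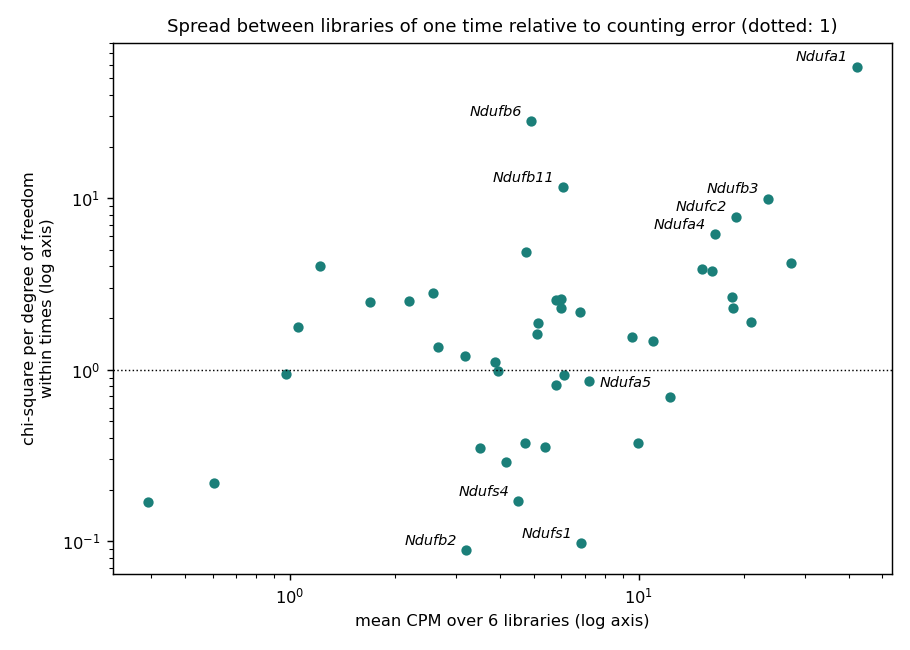
Chi-square per degree of freedom of the reads within times against mean CPM, both on log axes, 1 point for each of the 45 Nduf genes; the dotted line at 1 is counting error alone. Ndufa1 (58.3) and Ndufb6 (28.1) stand highest, and Ndufs4 (0.172), Ndufb2 (0.0891) and Ndufs1 (0.0977) lie among the lowest.

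Near copies of the 3′ end under another gene name touched 10 members. In these, a gene of another name matched at least 100 bases of the last 300 bases of a coding transcript at 95% identity or more, so their reads could be split, and for 6 of them (Ndufb2, Ndufs3, Ndufa12, Ndufs5, Ndufb11 and Ndufab1) such a copy was itself listed. Ndufb3 matched an unlisted pseudogene, Gm45930, and the match of Ndufaf7 was a stretch shared with 32 other genes. The only match of Ndufb8, Gm20538, overlaps it on the same strand and so is not a copy elsewhere in the genome. The same is true of Gm42420, which matched Ndufb2 beside its pseudogene Gm13186. The 3′ ends of 7 members also lie under a gene on the opposite strand and those of 2 under one on the same strand; whether reads were counted by strand is not stated. Ndufs3, a core subunit of the Q module, was at 0.610 ± 0.0216 CPM at CT1 and 0.597 ± 0.137 CPM at CT23, and its pseudogene copy Gm12251 was at 3.66 ± 0.262 CPM at CT1 and 3.599 ± 0.197 CPM at CT23 (SD, n = 3 each). Ndufs3 and Gm12251 together came to 4.28 ± 0.283 CPM at CT1 and 4.20 ± 0.174 CPM at CT23. Ndufs5 and its copy BC002163 together came to 7.63 ± 2.16 CPM at CT1 and 6.27 ± 1.62 CPM at CT23, where Ndufs5 alone had means of 1.01 CPM at CT1 and 1.43 CPM at CT23. The sum was thus higher at CT1 and the gene alone lower, both with overlap between the times. Ndufb11 and its copy Gm6444 together came to 21.4 ± 4.797 CPM at CT1 and 19.5 ± 2.79 CPM at CT23, which also turned the direction of the lone gene (means of 5.70 CPM at CT1 and 6.44 CPM at CT23). For Ndufab1, the acyl carrier protein of mitochondria, gene and copy came to 6.64 ± 0.166 CPM at CT1 and 6.55 ± 0.294 CPM at CT23, against 3.23 CPM at CT1 and 3.80 CPM at CT23 for the gene alone. Adding the copy ended the gap between the times in both other genes. Ndufa12 and Gm15920 together came to 9.59 to 12.9 CPM at CT1 and 8.87 to 9.76 CPM at CT23, and Ndufb2 and Gm13186 to 6.12 to 7.53 CPM at CT1 and 5.57 to 6.99 CPM at CT23. Neither Ndufa5 nor Ndufs4 had such a copy or an overlapping gene in the annotation.

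Genes that work beside the members are given by lists chosen with earlier results of these data known. Their counts stand beside 47.8% of all genes higher at CT1 (27.3% without crystallin reads) and 9.39% higher at an unadjusted p under 0.05. Assembly factors with other names had 8 of 13 tested genes higher at CT1 (median log2 fold 0.064; 4 of 13 and -0.079 without crystallin reads), 1 of them at an unadjusted p under 0.05. That was Tmem126b, a partner of Ndufaf1, at 5.25 ± 0.446 CPM at CT1 and 4.24 ± 0.208 CPM at CT23 (SD, n = 3 each; log2 fold 0.25, limma adjusted p = 0.225). The mitochondrially encoded complex I genes, mt-Nd1, mt-Nd2, mt-Nd4, mt-Nd5 and mt-Nd6, were all higher by their log2 folds, which lay between 0.097 and 0.22 (1 of 5 higher without crystallin reads), with 0 at an unadjusted p under 0.05. Their sums were 4567, 6037 and 5861 CPM in CT1 replicates 1, 2 and 3 and 5857, 5005 and 3904 CPM in CT23 replicates 1, 2 and 3, with overlap between the times.

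Nuclear subunits of complexes II to V had 27 of 32 tested genes higher at CT1 (median log2 fold 0.20), against 47.8% of all genes. Without crystallin reads 17 of 32 were higher (median log2 fold 0.036), against 27.3% of all genes. At an unadjusted p under 0.05, 6 were higher (9.39% of all genes) and 0 lower (12.4%). Atp5o of the ATP synthase was at 20.8 ± 1.62 CPM at CT1 and 15.6 ± 1.28 CPM at CT23 (SD, n = 3 each; log2 fold 0.39, limma adjusted p = 0.102), and Uqcrh of complex III and Sdhb of complex II had log2 folds of 0.29 and 0.38. The median of these subunits and that of the complex I subunits (0.19 over 35 tested) lay close, and a difference between them was not tested. Regulators of mitochondrial genes leaned the other way, with 3 of 10 tested higher (median log2 fold -0.096; 0 of 10 and -0.26 without crystallin reads). The 1 with an unadjusted p under 0.05 was Pprc1, a coactivator related to PGC-1, at 0.736 ± 0.0701 CPM at CT1 and 1.49 ± 0.375 CPM at CT23 (log2 fold -0.51, limma adjusted p = 0.114). Next by p came Ppargc1b (log2 fold -0.20) and Esrrg (-0.26). In these and Pprc1, 3 of the 10 tested, all CT1 libraries lay below all CT23 libraries (16.3% of all genes), and 0 lay above (11.3%). Pprc1 and Esrrg averaged under 1 CPM at CT1, so they rest on few reads. Ppargc1a, which encodes PGC-1 alpha, had a log2 fold of -0.12 and Nrf1, whose product binds the NRF1 site, had -0.077.

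**Figure D5:**
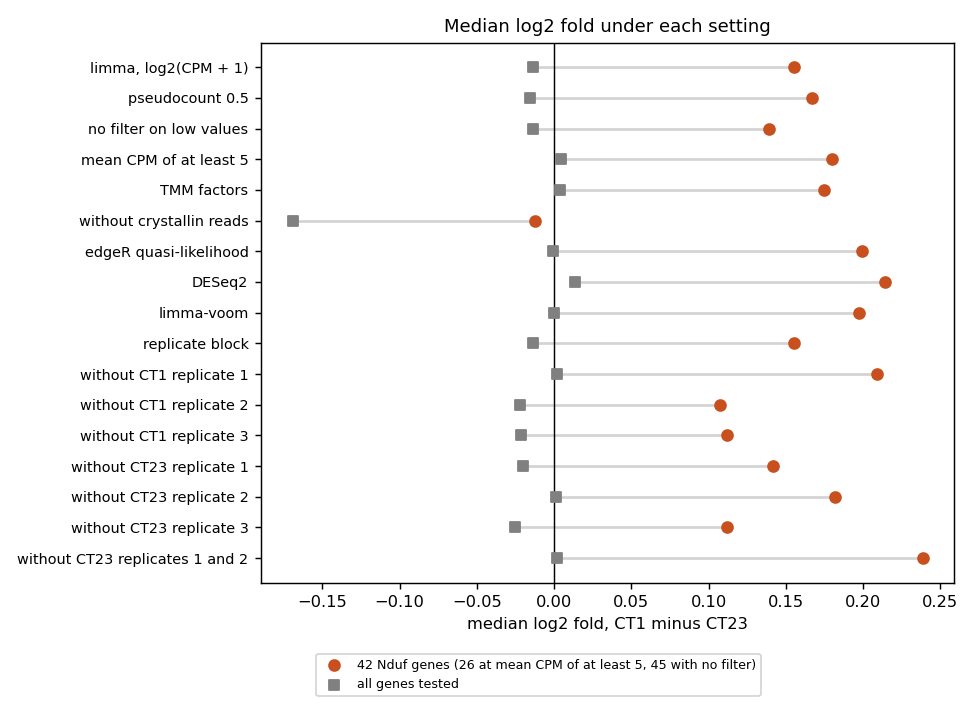
Median log2 fold, CT1 minus CT23, of the Nduf genes (circles) and of all genes tested (squares) under each setting, 1 setting per row. The Nduf median is above 0 except where crystallin reads are left out (-0.012), and it lies 0.13 to 0.24 above that of all genes in every row.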

How the data were processed

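The authors deposited 1 table of gene-level values, per the file headers: CPM in each library, the log2 fold of the comparison and its p-value. The submitters' processing notes list mm10, Bowtie2 2.1.0, HTSeq and edgeR 3.24.1 without saying what each did; strand settings and filters are not stated. A kit that reads transcript 3′ ends was used, per the labels' protocols. The deposited fold was CT1 over CT23, from mean CPM. All CPM values were whole multiples of 1 read within 0.01 of a read, which gave the library totals. Of 14083 entries, 75 named no gene (0.0432% to 0.102% of listed reads) and were left out.

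Values were tested with limma 3.58.1 (R 4.3.3), using a trend and log2(CPM + 1), with time as the only factor, two-sided, with Benjamini-Hochberg adjustment over all tested genes at 0.05. Libraries are not stated to come from separate animals, so p-values measure the spread between these libraries. Alternatives were other pseudocounts and filters, TMM factors, library totals free of crystallin reads, edgeR 4.0.16, DESeq2 1.42.0 and limma-voom on recovered reads, a replicate block and each library left out. Leaving out CT23 replicates 1 and 2 together was chosen after seeing the data. Fits were tested on simulated data. Coordinates are from GENCODE M21 (mm10), and all 45 members matched. Copies of 3′ ends were sought with BLAST+ 2.17.0.

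The members and all lists were chosen with earlier results of these data known. The rule for named genes took members with an unadjusted p under 0.05, core subunits, assembly factors and Ndufa4, of which 1 is not reported here; members singled out by their spread were chosen after their values were seen. The detection floor of 3 reads (0.220 to 0.238 CPM) covers counting error only.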

Additional observations from a re-analysis of the deposited data

How the results depend on the processing

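No member passed at an adjusted p of 0.05 in any setting except a filter at a mean of 5 CPM, where 1 did (Ndufa5). Over all genes 0 passed, with 2469 at an unadjusted p under 0.05, and 0 in edgeR (2464 unadjusted) and in limma-voom (2492 unadjusted); 98 passed above 5 CPM, 360 without crystallin reads in the totals (7 of them higher at CT1) and 133 with DESeq2, which gave no adjusted p to 11 of the 42 members. With 1 library left out the count was 0 to 4 (4 without CT23 replicate 3). Members higher at an unadjusted p under 0.05 (10) were 2 without crystallin reads (2.85% of all genes) and 5 with DESeq2 (6.78%). They were 3 to 10 with 1 library left out (7.09% to 8.95%). Members lower at that threshold (0) were 1 without crystallin reads (20.8%) and 1 with the replicate block (11.8%). They were 0 to 2 with 1 library left out (8.14% to 11.8%). Members with no overlap between the times (8) were 5 above 5 CPM, 13 with TMM factors and 2 without crystallin reads, all higher, against 13.7%, 12.7% and 3.36% of all genes. With 1 library left out they were 11 to 19, of which 9 to 19 higher (15.4% to 17.2% of all genes) and 0 to 4 lower (18.3% to 23.1%). With CT23 replicates 1 and 2 both dropped they were 28, 27 higher (28.8% of all genes) and 1 lower (28.7%), with the lone CT23 library assumed to vary like the others. The members' median log2 fold lay between 0.11 and 0.21 with 1 library left out. The log2 fold of the summed members was -0.079 without crystallin reads and 0.32 with CT23 replicates 1 and 2 dropped, and 0.045 to 0.20 with 1 library left out. The shift of all genes by crystallin reads comes from that setting's construction; other causes were not tested.

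Same-numbered libraries did not deviate together (r = -0.255, 0.383 and -0.0418 over genes for replicates 1, 2 and 3), so the main limma fit did not take the numbers as pairs. The authors' deposited p-values of Ndufab1 and Ndufa3, however, match a t-test paired by number. The replicate block is the fit here that keeps those pairs. With the replicate block 9 members were higher (10.0% of all genes) and 1, Ndufb6, lower (11.8%) at an unadjusted p under 0.05, and 0 passed.

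Of 20 named members tested, 15 kept their direction in every setting. Without crystallin reads the log2 fold of Ndufa4 was -0.11. Without CT23 replicates 1 and 2 those of Ndufaf7 and Ndufaf1 were 0.26 and 0.21. With 1 library left out Ndufaf3 lay between -0.29 and 0.048, Ndufa4 between -0.049 and 0.22, Ndufv2 between -0.098 and 0.011, Ndufaf7 between -0.27 and 0.089 and Ndufaf1 between -0.19 and 0.13. At 27 to 53 reads, as for Ndufb4, counting error limits single values.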

Other observations

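In the authors' deposited table, whose folds are CT1 over CT23, the 1 Nduf gene lower at a p-value under 0.05 was Ndufab1 (deposited log2 fold -0.23). Ndufa13, Ndufa2, Ndufs7, Ndufa3 and Ndufaf6 were among the 10 that were higher in the authors' deposited table, while limma gave the first 4 no unadjusted p under 0.05 and tested Ndufaf6 only with no filter, where its unadjusted p was under 0.05. Ndufaf8, Ndufc1, Ndufb5, Ndufb4 and Ndufv1 were the reverse. The 2 sets of p-values measure different things. The deposited p-values of Ndufab1 (0.0232) and Ndufa3 (0.0465) are those of a t-test on CPM paired by replicate number, while limma was run unpaired.

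Spread like that of Ndufb6 was also seen outside complex I, in a gene named after its values were seen. Cox7c, a small subunit of cytochrome oxidase, was at 5.44, 10.6 and 4.59 CPM in CT1 replicates 1, 2 and 3 and at 14.7, 10.4 and 6.23 CPM in CT23 replicates 1, 2 and 3. As in Ndufb6, CT23 replicate 1 was highest and CT1 replicate 3 lowest, and the times overlapped (log2 fold -0.55, SE 0.33, limma adjusted p = 0.378).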
